A study of Mus musculus with 3 samples.

Results

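The genes described here encode the receptors for serotonin, noradrenaline, dopamine and histamine. They were taken by symbol, as every gene of the Htr1 to Htr7, Adra1, Adra2, Adrb, Drd and Hrh series in the deposited gene lists, which gave 32 of 31055 genes. Of these 14 were serotonin receptors, 9 adrenergic receptors, 5 dopamine receptors and 4 histamine receptors. The rule uses names and no measured value, though it was set with earlier results of these data known.

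Serotonin, noradrenaline and histamine reach the olfactory bulb through long axons from the brainstem and hypothalamus, whereas dopamine is made in the bulb itself by periglomerular neurons. Nearly all of their receptors signal through G proteins. Receptors coupled to Gs or Golf raise cyclic AMP, those coupled to Gi or Go lower it and act on ion channels, and those coupled to Gq release calcium from internal stores. The Htr3 subunits are the exception, since they form a cation channel.

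Nuclei came from the olfactory bulbs of 3 adult C57Bl/6 mice, one library per animal. Each mouse carried a retrogradely transported rAAV-retro with a CAG-driven nuclear H2B-GFP, delivered to piriform cortex and the anterior olfactory nucleus, 2 targets of bulb output neurons. Nuclei were sorted for GFP and DRAQ5, and RNA was counted per gene by unique molecular identifiers (UMIs) with the 10x Chromium 3' v3 chemistry. There was no untreated group, so the comparisons are between kinds of nuclei within the same animals. According to the methods the mice were 7 weeks old and male, and GFP was driven by the CAG promoter, which as background is active in most cell types.

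The 3 mice gave 5845, 21105 and 4753 retained nuclei with medians of 7940, 8420 and 10568 UMIs. Levels are given as CPM, counts per 1000000 UMIs of the summed nuclei of 1 mouse and 1 kind. Mitral cells and tufted cells, the output neurons of the bulb, were represented by 7 subclusters named from marker genes, the mitral-like M1, M2 and M3 and the tufted-like T1, ET1, ET2 and ET4 (ET for external tufted). Summing per mouse and type gave 21 libraries, in which every marker of the type's own list had UMIs, except for 1 library that stood apart. The M1 library of mouse 1 held only 14 nuclei, against 465 and 207 in mice 2 and 3, its M1 markers summed to 1473 CPM against 7891 and 8004 CPM, and the M1 marker C1ql1 had no UMI. No UMI of a gene in that library allows a level of up to 18.6 CPM. All M1 results below were therefore also computed without it, and no call was lost.

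Among the 32 genes, 23 reached a mean of 5 CPM in at least 1 type or cluster which was the level asked for a full description. The other 9 were Htr1a, Htr1b, Htr3b, Htr4, Htr6, Adra2b, Drd4, Drd5 and Hrh4. Their highest mean levels ran from 0.278 CPM for Htr3b to 4.99 CPM for Htr1a. Htr6, a Gs-coupled serotonin receptor, had 32 of its 52 UMIs in the astrocyte-like cluster 9. In all, 7 UMIs were counted for Adra2b, 36 for Drd4, 91 for Hrh4 and 108 for Drd5, which is too few to order the types.

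Which receptors differed between the types of output neuron was asked first. Of the 17 receptor genes with enough counts to be tested across the 7 types, 16 differed (edgeR quasi-likelihood F test, adjusted p under 0.05), against 64.7% of all genes tested. Htr2b, a Gq-coupled serotonin receptor, was the exception, with an adjusted p of 0.43 by edgeR. Comparing each type with the mean of the other 6 gave 29 higher and 24 lower calls among 119 pairs of gene and type (adjusted p under 0.05 and more than 1 on the log2 scale), where 6.89% and 5.28% of all pairs were called higher and lower. Adra2a and Htr7 passed the filter on low counts only through their M3 libraries and Drd3 only through T1, so that these 3 had to differ and the counts that include them are a description. The types were formed by clustering the same counts, so these p-values compare the clusters as they were formed and are no test of the grouping. The calls were spread unevenly, as the plot of receptor levels by type shows. ET1, ET4 and T1 each had 7 of the 17 genes called higher, where 5.17%, 8.71% and 6.68% of all genes were. M3 had 3 (5.38% of all genes), M2 and ET2 had 2 each (6.83% and 7.64%), and M1 had 1 (7.8%). In the other direction M1 had 8 of 17 genes called lower (4.04% of all genes), M2 5 (5.29%), ET2 4 (6.18%), ET4 3 (9.32%), T1 2 (5.5%), and ET1 and M3 1 each (3.44% and 3.18%).

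**Figure D1:**
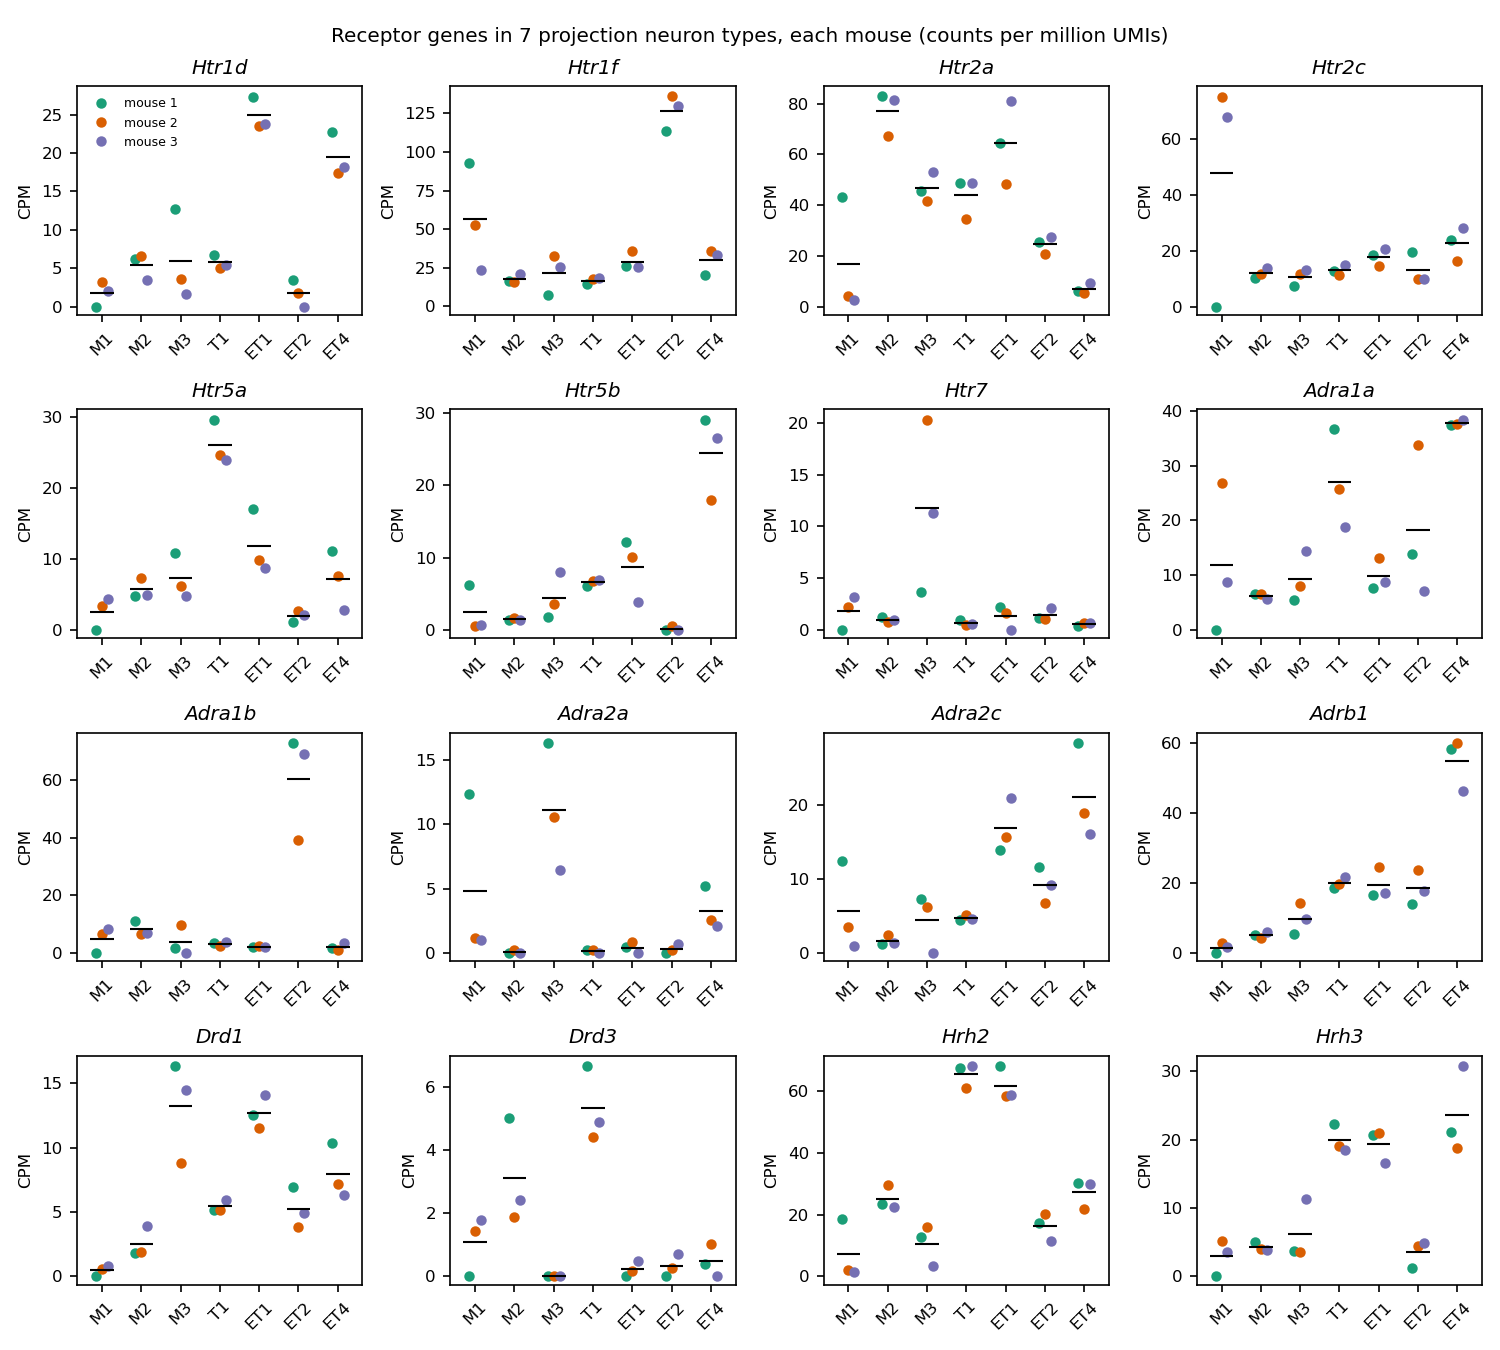
Levels of the 16 receptor genes that differed between the 7 projection neuron types, in CPM on a linear axis of its own for each gene, with 1 point per mouse and type (colour gives the mouse) and a line at the mean of the 3 mice. Htr1f and Adra1b stand highest in ET2, Htr5a in T1, Adrb1 and Htr5b in ET4, Htr7 in M3, and Htr2c in M1 of mice 2 and 3, while the M1 point of mouse 1, from 14 nuclei, often lies apart.

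Htr2a and Htr2c, the related Gq-coupled serotonin receptors, marked different mitral types. Htr2c (chromosome X, 146962513 to 147197277, plus strand, GRCm38) was at 75.1 and 67.7 CPM in M1 of mice 2 and 3 and had no UMI in the M1 library of mouse 1. In the other 6 types it lay between 7.26 and 27.9 CPM. M1 exceeded the mean of the others by 2.26 ± 0.20 (log2, SE, n = 3 mice, adjusted p = 2.6e-09 by edgeR), and by 2.43 (adjusted p = 2.9e-12) without the library of mouse 1. Htr2c was therefore high in the M1 libraries with many nuclei, and only the library of 14 nuclei overlapped with the other types.

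Htr2a (chromosome 14, 74640840 to 74709494, plus strand) showed the opposite order. It was at 82.9, 67.3 and 81.5 CPM in M2 of mice 1, 2 and 3, and at 43.3, 3.95 and 2.59 CPM in M1. M2 stood 2.06 ± 0.17 above the other types (adjusted p = 3.3e-10, edgeR), ET1 followed at 64.6, 48.2 and 81.1 CPM (1.65 ± 0.19), and the libraries of M2 and ET1 overlapped. The change in M1 was -2.99 ± 0.32, and -3.24 without the library of mouse 1. ET4 was low too, at 5.98, 5.13 and 9.08 CPM (-2.48 ± 0.29). The call in T1 (1.07) was lost with DESeq2, where the adjusted p was 0.13, and with library-size scaling, where the change was 0.95.

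The promoter windows of both genes are shown because Htr2a and Htr2c had opposite levels in M1 and M2. They run from 250 bases before to 50 bases after a RefSeq transcript start (GRCm38.p6, plus strand), for Htr2a at chr14:74640624-74640923 and for Htr2c at chrX:146962263-146962562, with any match to the searched motifs in capitals. The Htr2a window holds TAATTA, the core of many homeodomain sites, whose first base lies 139 bases before the start.
Htr2a: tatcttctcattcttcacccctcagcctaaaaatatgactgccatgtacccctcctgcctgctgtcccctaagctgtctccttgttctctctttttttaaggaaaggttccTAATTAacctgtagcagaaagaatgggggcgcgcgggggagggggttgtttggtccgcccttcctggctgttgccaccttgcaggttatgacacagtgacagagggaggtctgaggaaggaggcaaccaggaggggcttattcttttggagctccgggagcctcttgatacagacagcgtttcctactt
Htr2c: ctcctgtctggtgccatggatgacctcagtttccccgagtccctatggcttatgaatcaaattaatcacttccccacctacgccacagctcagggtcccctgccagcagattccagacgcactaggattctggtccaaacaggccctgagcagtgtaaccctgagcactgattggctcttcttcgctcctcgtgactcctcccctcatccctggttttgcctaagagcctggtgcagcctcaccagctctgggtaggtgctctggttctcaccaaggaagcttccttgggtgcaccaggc

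Windows were found for 24 of the 32 receptor genes, 32 windows in all. Adra1a, Adra1d, Adrb3, Htr3a, Htr4, Htr5b and Hrh4 were among those without one. On both strands 4 motifs were searched, chosen because homeodomain, T-box and EBF factors are known in these neurons. TAATTA occurred in 5.29% of all 32544 windows of this length and in 1 receptor window, that of Htr2a. TATAAA occurred in 13.6% of all windows and in 1 receptor window, that of Adra2a. The T-box letters AGGTGTGA (1.28% of all windows) and the EBF core, TCCC and GGGA with 2 bases between them (0.913%), were in no receptor window. A match says only that these letters are there.

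The Gi- or Go-coupled serotonin receptors Htr1d and Htr1f were highest in different external tufted types. Htr1d (chromosome 4, 136423524 to 136444398, plus strand) was at 27.4, 23.5 and 23.8 CPM in ET1 and at 22.7, 17.5 and 18.2 CPM in ET4, and at most at 12.7 CPM in any library of the other 5 types. ET1 was 2.41 ± 0.23 higher on the log2 scale than the mean of the others (adjusted p = 9.1e-09, edgeR), and every ET1 library was above all libraries of the other types. In ET2 it was called lower (-2.31), a call lost when nuclei were thinned to 3000 UMIs (adjusted p = 0.058). Htr1f (chromosome 16, 64924729 to 65105854, minus strand) was at 113, 136 and 130 CPM in ET2, where it rose by 2.25 ± 0.18 (adjusted p = 2.4e-10). Its highest level elsewhere was 92.8 CPM, in the M1 library of mouse 1. ET2 was also the type with the highest mean sum of inhibitory neuron markers, 672, 1056 and 251 CPM in mice 1, 2 and 3. Relative to inhibitory neurons, Htr1f in ET2 stood at 23.3%, 22.7% and 22.5% of their level in the 3 mice, while Gad1, which makes GABA, stood at 11.7%, 20.6% and 6.60%, and Slc32a1, which loads GABA into vesicles, at 10.3%, 22.5% and 3.88%. The part of RNA from inhibitory neurons in this Htr1f level was not tested.

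Htr5a (chromosome 5, 27842149 to 27855088, plus strand), another Gi- or Go-coupled receptor, marked T1. It was at 29.7, 24.6 and 24.0 CPM there and at 17, 9.87 and 8.75 CPM in ET1, the next type. T1 was 2.35 ± 0.19 above the mean of the other types (adjusted p = 1.9e-10, edgeR) with no overlap. ET2 was called lower (-1.96), and with thinned nuclei it was not (adjusted p = 0.061). Its relative Htr5b (chromosome 1, 121509842 to 121528465, minus strand) peaked instead in ET4, at 29.1, 18 and 26.5 CPM, by 3.39 ± 0.26 (adjusted p = 7.9e-11). In ET2, where Htr5b was called lower, only 2 UMIs were counted, all in mouse 2, and the call was lost with thinned nuclei (adjusted p = 1.00). ET1 (1.93) and T1 (1.48) were called higher for Htr5b as well.

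Htr7, a Gs-coupled serotonin receptor (chromosome 19, 35958734 to 36057507, minus strand), was found mainly in M3 among the output neurons. It was at 3.63, 20.3 and 11.3 CPM in M3, from 2, 23 and 7 UMIs, and at most at 3.19 CPM in the other types. Since Htr7 entered the fit through these M3 libraries, their height is a description. In the same M3 libraries all 7 inhibitory markers had UMIs, summing to 398, 706 and 243 CPM, and the oligodendrocyte markers summed to 180, 184 and 87.0 CPM. The astrocyte markers summed to 151, 308 and 232 CPM in M3 of mice 1, 2 and 3, against 98.7 to 99.3 CPM in M2. Among the clusters of all nuclei Htr7 was called lower in the astrocyte-like cluster 9. It was called higher in the inhibitory clusters 6, 7, 10 and 12 and in the ensheathing-glia-like cluster 11. The part of these cell types in the Htr7 level was not tested. Without mouse 2 Htr7 had too few counts for the fit, and its lower calls in ET4 (-1.66) and T1 (-1.38) were lost without mouse 3, with adjusted p of 0.089 and 0.11. Both were lost as well without the 5% of nuclei with the most UMIs (0.070 and 0.12, edgeR). That in ET4 was also lost without mouse 1 (0.16) and with DESeq2 (0.051). The lower calls of Htr1d (-1.37) and Htr5b (-2.56) in M1 were lost without mouse 2, with adjusted p of 0.059 and 1.00. That of Htr1d was also lost with thinned nuclei (-0.93, adjusted p = 0.32, edgeR). Htr2b was at 4.78 to 10.9 CPM in the libraries of all types other than M1, with no type apart from the rest. It is crossed by Psmd1, a proteasome subunit gene, on the opposite strand, and counts of the pair cannot be told apart here because the strand setting is not given in the sources used, so that the Htr2b level is uncertain in every kind of nucleus.

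Among the receptors for noradrenaline, the Gq-coupled Adra1b (chromosome 11, 43774606 to 43901210, minus strand) had the sharpest pattern. It was at 72.9, 39.2 and 69.1 CPM in ET2 and at most at 11.2 CPM in any other library. ET2 was 3.83 ± 0.25 higher on the log2 scale (adjusted p = 3.4e-12, edgeR). Lower calls were made in ET4 (-2.24) and ET1 (-1.52), where 15 and 23 UMIs were counted. That in ET4 was lost without mouse 2 (adjusted p = 0.086), and that in ET1 without any of the 3 mice in turn (0.071, 0.19 and 0.052).

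Adrb1, Adra2c and Adra1a were called higher in ET4. Adrb1 (chromosome 19, 56722199 to 56733113, plus strand), the Gs-coupled beta receptor best known from the heart, was at 58.2, 59.9 and 46.1 CPM in ET4, at 18.5 to 21.7 CPM in T1 and at 0, 2.76 and 1.79 CPM in M1. ET4 was 2.34 ± 0.15 above the mean of the others (adjusted p = 1.8e-12, edgeR) and the change in M1 was -2.81 ± 0.27, or -2.78 without the library of mouse 1, whose 0 UMIs allow up to 18.6 CPM. All ET4 libraries lay above, and all M1 libraries below, those of every other type. Adra2c, Gi-coupled, was at 28.3, 18.8 and 16.1 CPM in ET4 (1.98) and at 13.9, 15.6 and 20.9 CPM in ET1 (1.78), so that these types overlapped. Adra1a (chromosome 14, 66635251 to 66771168, plus strand), Gq-coupled, was at 37.5, 37.6 and 38.4 CPM in ET4 (1.36) and at 36.7, 25.7 and 18.8 CPM in T1 (1.03). The T1 call was lost without mouse 1, where the change was 0.69 (adjusted p = 0.16), and with library-size scaling, where it was 0.91. ET4 reached 19.7% ± 2.8 (SD, n = 3) of the Adra1a level of inhibitory neurons, against 6.62% ± 4.1 for Gad1 and 27.4% for Gad2. The part of RNA from inhibitory neurons in the Adra1a level was not tested.

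Adra2a, the Gi-coupled alpha2 receptor that also acts as an autoreceptor on noradrenaline neurons (chromosome 19, 54044151 to 54048982, plus strand), was low in most output neurons. It was at 16.3, 10.6 and 6.44 CPM in M3, from 9, 12 and 4 UMIs, and at 5.18, 2.57 and 2.10 CPM in ET4. Since Adra2a entered the fit through M3, the height of M3 is a description. ET4 was 2.28 above the mean of the others. In M1 it was at 12.4 CPM in the library of 14 nuclei, from 2 UMIs, and at 1.20 and 0.996 CPM in the others. The lower calls in M2 and T1 rested on 2 and 6 UMIs. The first was lost without mouse 1 (adjusted p = 0.051) and the second without mouse 2 (1.00) or mouse 3 (0.085). The lower call of Adra2c in M1 (-1.36) was lost without mouse 2 (0.052) or mouse 3 (0.16).

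The promoter window of Adra2a is shown as the only receptor window with the TATA letters (TATAAA in capitals, first base 29 bases before the start), at chr19:54045009-54045308, plus strand, from RefSeq on GRCm38.p6.
Adra2a: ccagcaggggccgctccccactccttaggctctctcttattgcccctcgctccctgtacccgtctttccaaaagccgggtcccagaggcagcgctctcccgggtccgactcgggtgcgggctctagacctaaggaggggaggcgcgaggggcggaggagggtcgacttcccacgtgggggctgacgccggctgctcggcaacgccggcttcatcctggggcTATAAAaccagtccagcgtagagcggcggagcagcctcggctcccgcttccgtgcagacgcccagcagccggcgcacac

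Of the dopamine receptors, Drd1 and Drd3 could be tested in the output neurons. Drd1 (chromosome 13, 54051183 to 54055705, minus strand), which couples to Gs and Golf, was at 16.3, 8.83 and 14.5 CPM in M3 and at 12.6, 11.5 and 14.1 CPM in ET1. M3 was 1.41 ± 0.34 higher (adjusted p = 0.0036, edgeR) and ET1 1.70 higher. M1 was lowest at 0, 0.599 and 0.797 CPM (-3.20 ± 0.42), below every other library, and the change was -3.18 without the library of mouse 1. The M3 call was lost without mouse 1 (adjusted p = 0.057). Drd3 (chromosome 16, 43754026 to 43822932, plus strand), Gi-coupled, was at 6.66, 4.42 and 4.90 CPM in T1 and at 5.00, 1.89 and 2.41 CPM in M2, and no UMI was counted in M3. Drd3 entered the fit through T1, so the height of T1 is a description, and M2 was called higher too (2.82 ± 0.49).

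Of the histamine receptors, Hrh2 and Hrh3 could be tested across the types. Hrh2 (chromosome 13, 54192129 to 54236180, plus strand), Gs-coupled and best known from acid secretion in the stomach, was at 67.6, 61.0 and 68.1 CPM in T1 and at 68.2, 58.6 and 58.8 CPM in ET1. T1 was 2.17 ± 0.14 (adjusted p = 5.5e-12) and ET1 2.01 ± 0.16 (adjusted p = 2.8e-10) above the mean of the others by edgeR. These types overlapped with each other. M1 was at 18.6, 1.92 and 1.39 CPM, a change of -3.80 ± 0.30, and of -3.98 without the library of mouse 1. Hrh3 (chromosome 2, 180099465 to 180104488, minus strand), a Gi-coupled receptor often found on axon terminals, was at 21.1, 18.8 and 30.7 CPM in ET4, at 22.3, 19.1 and 18.5 CPM in T1 and at 20.6, 20.9 and 16.5 CPM in ET1. These 3 types were called higher (1.48, 1.51 and 1.43) and overlapped, whereas ET2 was called lower (-1.38), though not with thinned nuclei (adjusted p = 0.062). Hrh3 is crossed by Gm17180 and Hrh2 by Gm16578 on the opposite strand, and the counts of such pairs are uncertain because the strand setting is not given in the sources used here. The lower calls of Hrh3 in M1 (-1.11) and M2 (-1.03) were lost without mouse 3, with changes of -0.81 and -0.85, and that in M2 also without mouse 2 (-0.98). Both were also lost with at least 1500 genes per nucleus (-0.94 and -0.84) and with thinned nuclei (adjusted p of 0.10 and 0.20, edgeR). With no filter on low counts the change in M2 fell just under the fold asked for. The lower call of Hrh2 in M3 (-1.08) was lost without mouse 1 (adjusted p = 0.073) or mouse 3 (0.10), with library-size scaling (0.064), with DESeq2 (0.077), with thinned nuclei (0.16) and without the 5% of nuclei with the most UMIs (a change of -0.93).

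Whether mitral-like and tufted-like types differed as classes was tested next, as the mean of the 3 mitral-like against the mean of the 4 tufted-like types. Of the 17 receptor genes 7 were lower in the mitral-like types, where 3.81% of all genes were, and 1 was higher, where 5.53% were. The median change was -0.68 over the receptors and -0.03 over all genes tested. Adrb1 had a mean of 5.46 CPM over mitral-like and 28.1 CPM over tufted-like libraries (-2.36 ± 0.16, adjusted p = 6.0e-12, edgeR). Hrh2 had 14.3 and 42.8 CPM (-2.14 ± 0.17). Adra2c (-1.98), Htr5b (-1.56 ± 0.48), Hrh3 (-1.52), Drd1 (-1.36) and Adra1a (-1.13) were lower too. The higher gene was Htr7, with 4.82 and 0.997 CPM, which entered the fit through M3 and is given as a description. For each of these genes single libraries of the classes overlapped, since the types within a class differed. Without mouse 2 the call of Htr5b was lost (-0.56, adjusted p = 0.95) and Htr7 was not tested.

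The enzymes, transporters, G proteins and effectors of monoamine signalling were read from a list of 48 genes. Across the 7 types 29 of the 38 tested differed, where 64.7% of all genes did, and Th, Tph2 and Maob, which make or break down monoamines, were among those that did not pass the test. Between mitral-like and tufted-like types 2 of 38 were higher (5.53% of all genes) and none lower (3.81%), with a median change of 0.03. Arrb2, a beta-arrestin that uncouples receptors from G proteins, was at 56.0 CPM in mitral-like and 15 CPM in tufted-like libraries (1.74 ± 0.13, adjusted p = 3.0e-11, edgeR). Adcy7, an adenylyl cyclase, was the other (1.25 ± 0.41, adjusted p = 0.023).

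The output neurons were then compared with the inhibitory neurons of the same bulbs, which the sort had also collected. Of the 25 receptor genes tested, 7 were higher in projection neurons (15.4% of all genes) and 10 lower (13.9%). Of the 25 genes 7 passed the filter through 1 class only, Htr1d through projection neurons and Htr1b, Htr3a, Adra1d, Adrb3, Drd2 and Hrh1 through inhibitory neurons, so that these had to differ and the counts are a description. The median change was 0.08 for the receptors and 0.01 for all genes. Of the serotonin receptors 4 were higher, 4 lower and 4 not called, of the adrenergic 1, 4 and 2, of the dopamine receptors 2, 1 and 0, and of the histamine receptors 0, 1 and 2. Inhibitory markers summed to 175, 433 and 126 CPM in the projection neurons of the 3 mice against 6192, 6101 and 5655 CPM in the inhibitory neurons.

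**Figure D2:**
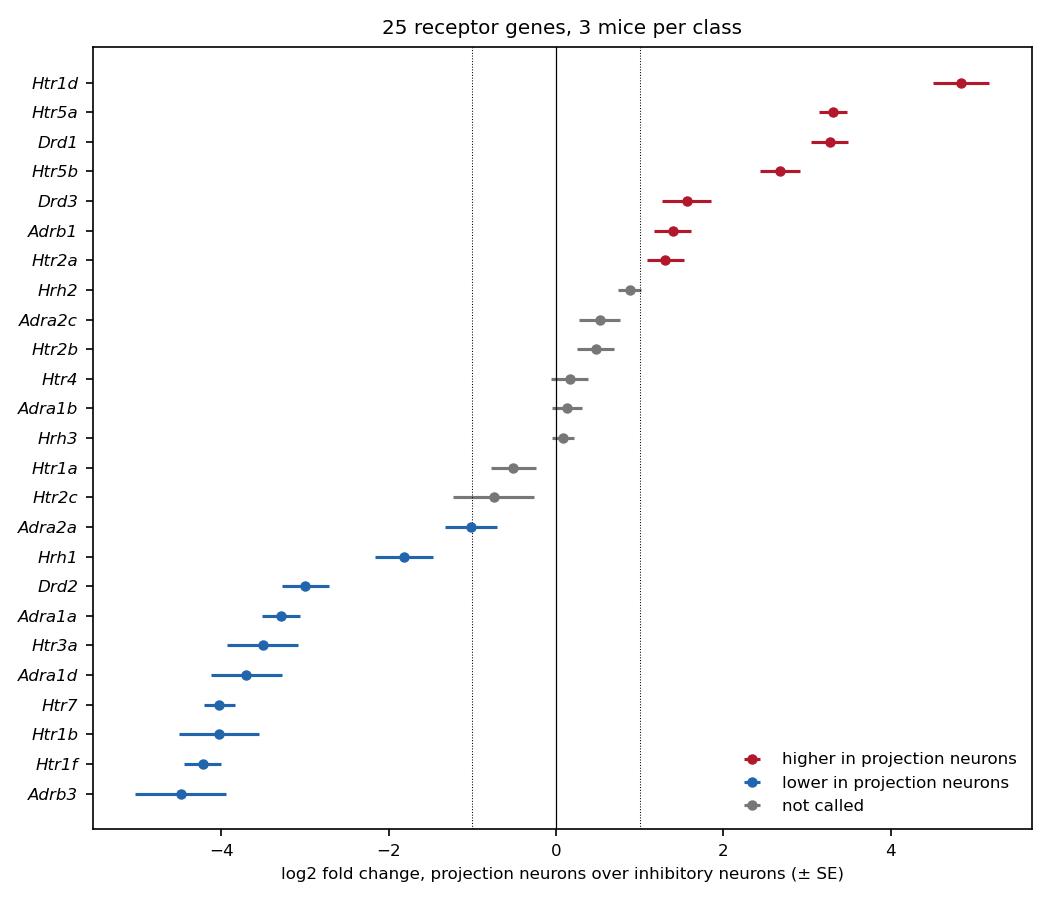
Log2 fold change of 25 receptor genes in projection neurons over inhibitory neurons (x axis, point with SE bar from the edgeR fit, 3 mice per class), with the genes on the y axis in order of the change, dotted lines at 1 above and below 0, and colour for the call. Htr1d stands farthest to the right at 4.84 and Adrb3 farthest to the left at -4.49, with 8 genes not called between them.

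Htr1d was at 10.2, 8.35 and 5.91 CPM in projection neurons and at 0.134, 0.349 and 0.319 CPM in inhibitory neurons (a change of 4.84 ± 0.34, given without a test since it entered the fit through projection neurons). Htr5a was at 15.8, 12.3 and 11.9 CPM against 1.41, 1.28 and 1.60 CPM (3.31 ± 0.17, adjusted p = 3.9e-06, edgeR). Drd1 was at 5.50, 4.79 and 5.24 CPM against 0.437, 0.528 and 0.745 CPM (3.27 ± 0.22, adjusted p = 1.3e-05). Apart from Htr1d, the genes Htr5a and Drd1 had the largest changes toward the output neurons among those tested. Htr5b (2.67 ± 0.24), Drd3 (1.56 ± 0.29), Adrb1 (1.40 ± 0.22) and Htr2a (1.31 ± 0.22) were higher by smaller margins. That of Htr2a fell just under the fold asked for when nuclei were thinned to 3000 UMIs (1.00, adjusted p = 0.0043, edgeR). Hrh2 was higher in all 3 mice, at 44.2, 36.9 and 37.5 CPM against 19.4, 21.3 and 27.1 CPM, with a change of 0.88 ± 0.14 (adjusted p = 0.0012) just under the fold asked for, and passed without mouse 3 (1.04).

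In the other direction, Htr1f was at 488, 599 and 578 CPM in inhibitory neurons and at 21.1, 36.4 and 27.0 CPM in projection neurons (-4.22 ± 0.22, adjusted p = 4.3e-06, edgeR). The projection neuron level was 5.02% ± 0.93 (SD, n = 3) of the inhibitory one. The same share was 5.71% ± 3.7 for Gad1, 8.34% for Gad2, 6.44% for Slc32a1, 4.64% for Synpr and 2.69% for Meis2, genes of the inhibitory class. The part of RNA from inhibitory neurons in the projection neuron level of Htr1f was not tested. Adra1a was at 171, 227 and 185 CPM against 21.3, 22.5 and 13.2 CPM (-3.29 ± 0.22, adjusted p = 1.2e-05), or 9.81% ± 2.7. Htr7 was at 29.1, 19.5 and 21.3 CPM against 1.16, 1.43 and 1.41 CPM (-4.02 ± 0.19, adjusted p = 2.6e-06).

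The remaining inhibitory receptors were at lower levels. Adrb3, a Gs-coupled beta receptor best known from fat tissue, was at 5.85, 8.54 and 7.13 CPM in inhibitory and at 0.129, 0.580 and 0.0352 CPM in projection neurons (-4.49 ± 0.54). It is crossed by Gm45470 on the opposite strand. Htr3a, the channel-forming subunit, was at 5.55, 3.98 and 3.41 CPM against 0.301, 0.560 and 0.106 CPM (-3.50 ± 0.42). Drd2, the Gi-coupled receptor that dopamine neurons also carry themselves, was at 3.97, 2.72 and 2.77 CPM against 0.387, 0.444 and 0.246 CPM (-2.99 ± 0.28). Htr1b (-4.03 ± 0.48), Adra1d (-3.70 ± 0.42) and Hrh1 (-1.81 ± 0.35) were lower too, and Htr3a, Htr1b and Adra1d are each crossed by an antisense gene. Adra2a was just past the fold (-1.01 ± 0.31, adjusted p = 0.022, edgeR) and its call was lost without mouse 1, 2 or 3 (adjusted p of 0.059, 0.081 and 0.059).

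Htr2c did not pass the test between the classes, with 13.6, 22.5 and 24.7 CPM in projection and 30.8, 14.7 and 63.9 CPM in inhibitory neurons (-0.75 ± 0.48, adjusted p = 0.21, edgeR). The inhibitory level varied more than the projection level between mice. Adra1b (0.13), Hrh3 (0.08), Htr4 (0.16), Htr2b (0.47), Adra2c (0.52) and Htr1a (-0.51) were not called either. Of the pathway list 7 of 44 genes were higher (15.4% of all genes) and 10 lower (13.9%) in projection neurons, with a median change of -0.21. The higher genes included Tph1, which makes the precursor of serotonin, at 0.979 CPM in projection and 0.203 CPM in inhibitory neurons (2.43 ± 0.35, a description since it entered the fit through projection neurons), and Maob, which breaks down monoamines, at 5.55 and 1.16 CPM (2.37 ± 0.21). Among the lower genes Plcb1, the phospholipase C that Gq activates, was at 98.5 CPM in projection and 1804 CPM in inhibitory neurons (-4.12 ± 0.28), and Th, which makes the precursor of dopamine, at 3.92 and 48.3 CPM (-3.50 ± 0.35).

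Finally, the receptors were followed through 21 clusters of all nuclei, namely 5 of projection neurons, 10 of inhibitory neurons, 5 of glia and 1 unnamed (cluster 18). Of 25 receptor genes tested, 24 differed between clusters, against 86% of all genes tested. Of 525 pairs of gene and cluster 115 were called higher than the mean of the other clusters, where 9.28% of all pairs were. Adra1d, Drd3, Htr1a and Htr1b passed the filter on low counts only through clusters 12, 2, 15 and 7, and had to differ. Htr2b missed the threshold (adjusted p = 0.064, edgeR) and passed it with the mouse as a block (0.018) and with DESeq2 (0.028). By edgeR it also passed with no filter on low counts (0.024), without mouse 3 (0.029), without the 5% of nuclei with the most UMIs (0.016) and with thinned nuclei (0.025). The inhibitory clusters 1 and 12 had the most, 11 of 25 genes each, where 7.83% and 5.76% of all genes were called higher. Clusters 4 and 8 followed with 10 each (9.84% and 6.85% of all genes). Those of cluster 4, of projection neurons, included Htr1d, Htr2a, Htr5a, Htr5b, Adra2c, Adrb1, Drd1, Hrh2 and Hrh3.

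**Figure D3:**
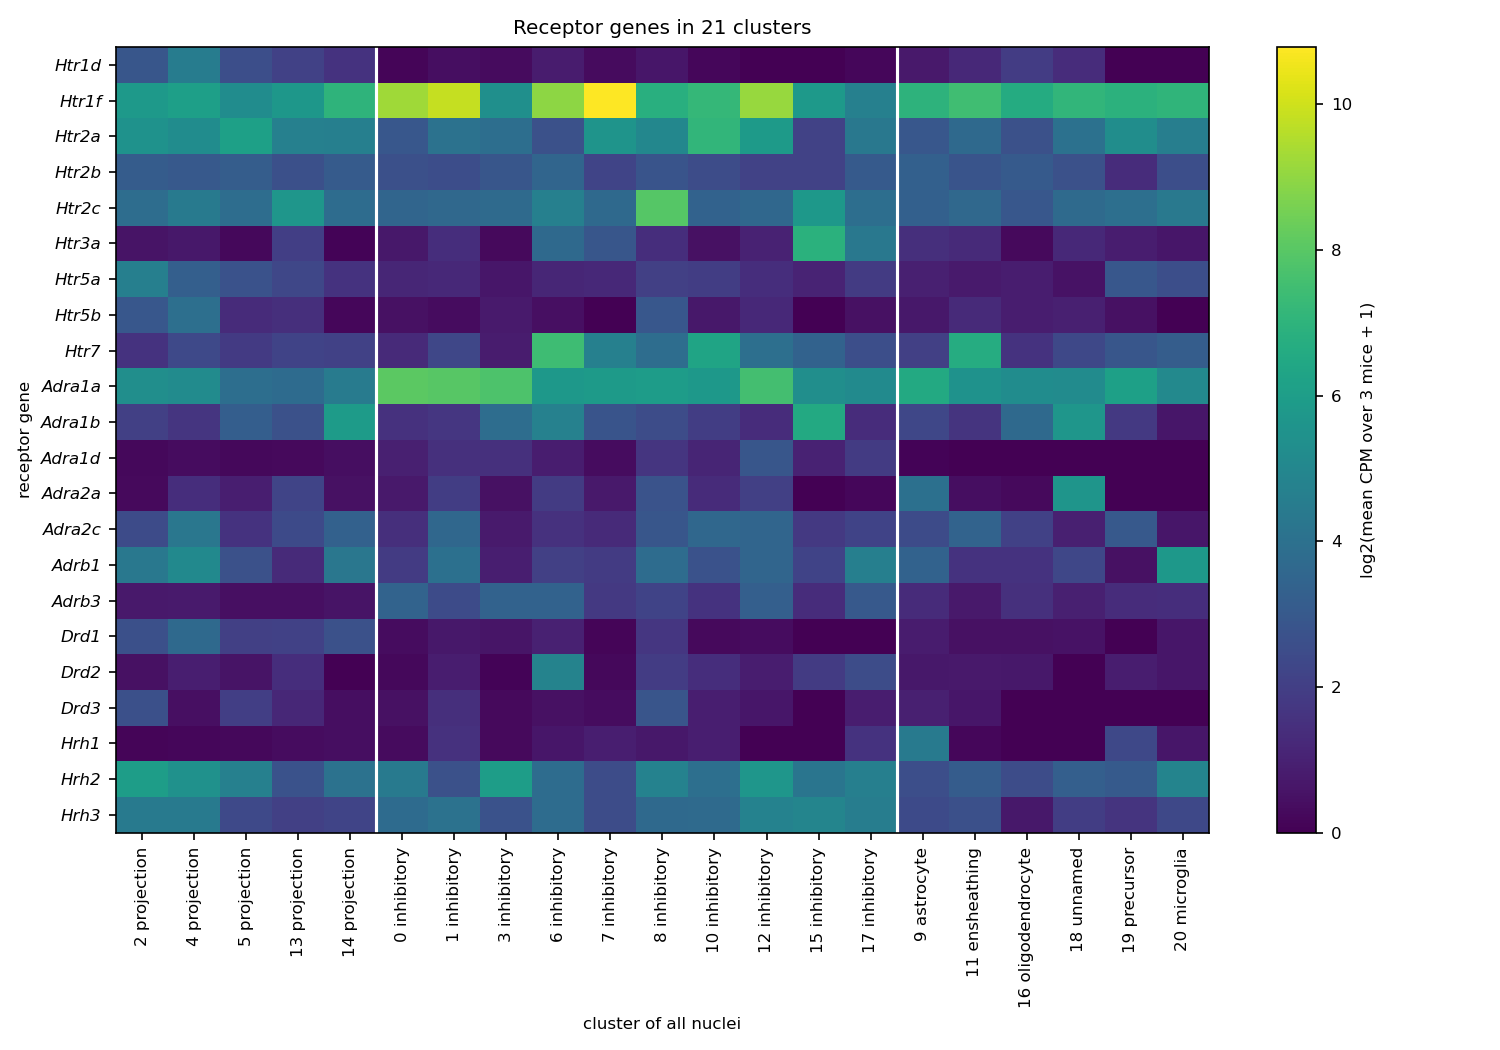
Heat map of log2(mean CPM over 3 mice + 1) for 22 receptor genes (rows) in 21 clusters (columns, ordered as projection neurons, inhibitory neurons, and glia with the unnamed cluster, separated by white lines). Htr1f and Adra1a are brightest in several inhibitory clusters, among them 0, 1 and 12, whereas Htr3a in cluster 15, Htr2c in cluster 8, Htr7 in cluster 6 and Hrh1 in cluster 9 stand out in single columns.

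Htr2c was highest in cluster 8, inhibitory neurons that carry Calb1 and Foxp2. Its level there was 253, 72.0 and 414 CPM in mice 1, 2 and 3, which is 4.05 ± 0.19 above the mean of the other clusters on the log2 scale (adjusted p = 7.3e-25, edgeR). In order of this change, cluster 13, of projection neurons, followed with 4.26, 73.3 and 72.7 CPM (2.16). Its library of mouse 1 held only 23 nuclei, against 478 and 209 in mice 2 and 3. Cluster 15, with Vip, Sst and Crh, had 73.0, 38.8 and 48.6 CPM (1.59). The spread between mice was widest in cluster 8 (SD 171 CPM), and its level in mouse 2 overlapped with clusters 13 and 15. With each nucleus thinned to 3000 UMIs, 13.5%, 6.92% and 21.3% of cluster 8 nuclei had a UMI of Htr2c, and 4.35%, 14.3% and 15.6% of cluster 13 nuclei. Oligodendrocyte-like nuclei (cluster 16), which should lack it, had 4.26%, 1.02% and 0%, and microglia-like nuclei (cluster 20) 0%, 5.71% and 12.5%. Cluster 20 is shallow, with 55 of 146 nuclei left out for holding fewer UMIs. Without thinning the shares were 19.3%, 12.8% and 30.3% in cluster 8 and 4.35%, 39.7% and 45.5% in cluster 13, with median depths of 7376 and 18005 UMIs, against 5441 in cluster 16 and 3405 in cluster 20.

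**Figure D4:**
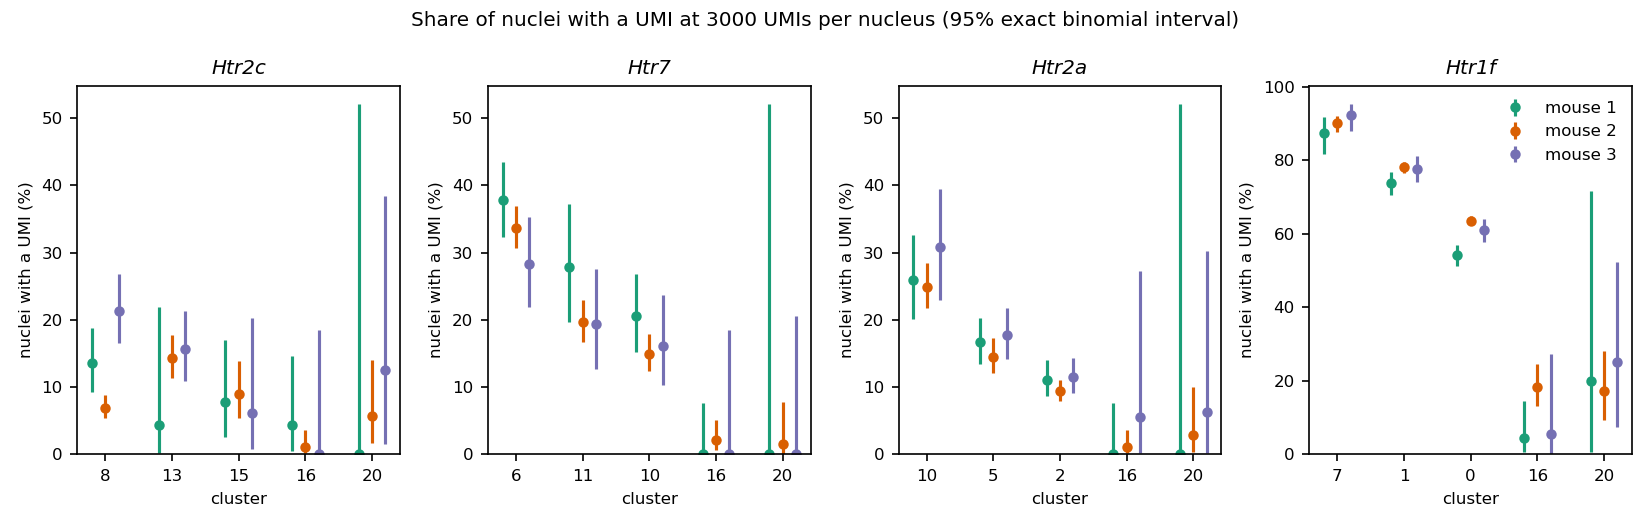
Share of nuclei with at least 1 UMI (y axis, percent) of Htr2c, Htr7, Htr2a and Htr1f after thinning each nucleus to 3000 UMIs, in the 3 clusters shown for each gene and in the oligodendrocyte-like cluster 16 and microglia-like cluster 20 (x axis), with 1 point per mouse and its exact 95% binomial interval, which covers counting error only. Htr1f in cluster 7 is at 87.4% to 92.4%, whereas the highest share of Htr2c is 21.3%.

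Htr1f was called higher in 5 of the 10 inhibitory clusters (0, 1, 6, 7 and 12) and lower in 3 of them (3, 15 and 17). Cluster 7, with Calb2, had 1641, 1515 and 2135 CPM (3.70 ± 0.24, adjusted p = 2.0e-19, edgeR), above every library of the other clusters. Cluster 1 had 838, 924 and 973 CPM and cluster 0 524, 642 and 647 CPM. Cluster 3 had a mean of 40.4 ± 15 CPM (SD, n = 3) and a change of -1.74, cluster 15 one of -1.27 and cluster 17 one of -2.30. Thinned, 87.4%, 90.1% and 92.4% of cluster 7 nuclei had a UMI, beside 4.26%, 18.4% and 5.56% in the oligodendrocyte-like cluster. In the glial clusters Htr1f stood at 17.2% to 31.5% of its inhibitory level, and Gad1, a gene of inhibitory neurons, at 19.5% to 33%.

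Adra1a was high in 4 inhibitory clusters, with 249, 290 and 275 CPM in cluster 0, 215, 285 and 258 in cluster 1, 196, 242 and 211 in cluster 3, and 177, 229 and 164 in cluster 12. These ranges overlapped, and cluster 0 was 2.40 above the mean of all others. The astrocyte-like cluster reached 47.1% ± 5.6 of the inhibitory level of Adra1a, beside 30.9% ± 15 for Gad1. Cluster 3 thus had Adra1a at the level of its neighbours but little Htr1f.

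Htr7 marked cluster 6, the inhibitory cluster with Th and Trh. It was at 200, 166 and 155 CPM there (4.77 ± 0.17, adjusted p = 3.0e-31, edgeR), at 112, 96.4 and 99.7 CPM in the ensheathing-glia-like cluster 11 (3.91) and at 94.8, 64.9 and 72.9 CPM in cluster 10 (3.6). Cluster 6 lay above all other libraries. Thinned, 37.8%, 33.7% and 28.3% of its nuclei had a UMI of Htr7, beside 0%, 2.04% and 0% in the oligodendrocyte-like cluster. Drd2 was at 30.5, 25.6 and 25.5 CPM in the same cluster 6 and rose by 5.52 ± 0.29 (adjusted p = 3.6e-22), so that the cluster with the dopamine enzyme Th carried both. In all, 8 of 25 receptor genes were called higher in cluster 6, where 6.38% of all genes were, the others being Htr1a, Htr1f, Htr3a, Adra1b, Adra2a and Adrb3.

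Htr3a, the channel subunit, was at 133, 107 and 110 CPM in cluster 15 and at 11.1, 26.6 and 19.3 CPM in cluster 17, the next. Cluster 15 was 6.40 ± 0.29 higher than the mean of all others (adjusted p = 2.9e-26, edgeR). Adra1b was at 128, 68.3 and 84.2 CPM in the same cluster (4.09), at 72.9, 38.6 and 69.1 CPM in cluster 14 of projection neurons (3.55) and at 26.7, 21.4 and 28.9 CPM in cluster 6 (2.22). Clusters 15 and 14 overlapped, so that Adra1b had similar levels in 1 inhibitory and 1 output cluster. Htr2a was highest not in output neurons but in cluster 10, inhibitory neurons with Cartpt and Ndnf, at 138, 99.0 and 176 CPM (3.09 ± 0.24), ahead of cluster 5 of projection neurons at 76.5, 57.6 and 75.6 CPM. At 3000 UMIs per nucleus 26.0%, 24.9% and 30.8% of cluster 10 nuclei had a UMI of Htr2a.

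Some receptors were high in clusters outside the neurons. Hrh1, Gq-coupled, was at 14.7, 16.8 and 31.0 CPM in the astrocyte-like cluster 9, above every other cluster (6.03 ± 0.34, adjusted p = 1.1e-20, edgeR). Adra2a was at 18.9, 10.2 and 15.9 CPM there (4.23) and at 65.5, 23.5 and 57.3 CPM in the unnamed cluster 18 (5.60 ± 0.48). Adrb1 was at 114, 32.0 and 15 CPM in the microglia-like cluster 20 (2.24) and at 37.2, 37.4 and 26.6 CPM in cluster 4 of projection neurons (2.61). The spread between mice in cluster 20 was as large as the level itself, with 7, 18 and 3 UMIs of Adrb1.

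The histamine receptors Hrh2 and Hrh3 were shared by output and local neurons. Hrh2 was at 66.4, 56.5 and 66.3 CPM in cluster 2 of projection neurons (2.30) and at 49.6, 66.3 and 71.3 CPM in the inhibitory cluster 3 (2.25), which overlapped. Hrh3 was at 51.4, 29.0 and 6.48 CPM in cluster 15 (1.93) and at 24.6, 25.1 and 29.5 CPM in cluster 12. Drd3 was at 11.4, 3.6 and 3.72 CPM in cluster 8 and at 6.54, 4.01 and 4.81 CPM in cluster 2, with overlapping libraries. Htr5a in cluster 2 (3.80) and Htr1d (5.76), Htr5b (4.69) and Adra2c (2.28) in cluster 4 were above all libraries of the other clusters.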

How the data were processed

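For each of the 3 mice a deposited matrix gives raw UMI counts, not normalized, per gene and barcode. According to the labels and file headers these were produced by Cell Ranger 3.0.2 on mm10/GRCm38. Whether introns were counted, and on which strand, is not given in the sources used here. Nuclei kept by the authors (1000 or more genes, no more than 5% mitochondrial UMIs) are listed in another deposited table with their clusters and subclusters from Seurat. Gene number and percent of mitochondrial UMIs were recomputed here from the raw counts, and 5846, 21105 and 4753 barcodes passed that rule, every listed nucleus among them. The deposited percent of mitochondrial UMIs per nucleus, computed by the authors, was not compared with it. In the deposited table of nuclei 6 other numeric columns were not used. Few barcodes were shared between mice (39, 8 and 35). The sort gated against doublets, and no doublet caller was run.

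Clusters and subclusters, which the table leaves unnamed, were named from marker lists (a marker was carried at 25% or, for subclusters, 50% of its highest CPM, and at least 3 were needed). Counts were added up by mouse and type (21 libraries, 161593 to 16961469 UMIs), per mouse over the 7 types and over inhibitory-like nuclei (6 libraries, 23267602 to 128789498 UMIs), and per mouse and cluster (63 libraries, at least 10 nuclei in every mouse). Cluster 21 was too small. Genes were filtered with filterByExpr, scaled by TMM and tested with edgeR 4.0.16 in R 4.3.3 (quasi-likelihood test, no covariate), p-values being adjusted by the Benjamini-Hochberg method across every gene in the fit. A call required adjusted p below 0.05 together with a change of more than 1 on the log2 scale, except in the F tests of any difference. SE is the log2 fold change divided by the root of F. CPM are not scaled by TMM. Receptors matched by symbol with a mean of at least 5 CPM in 1 type or cluster were described in full, and some genes are not reported here. The receptors, marker lists and pathway list were chosen with earlier results of these data known.

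On simulated data a log2 change of 1 was found for 90% of genes in M2, 96% between projection and inhibitory neurons and 96% in cluster 8. These genes had a mean above 5 CPM, and found meant adjusted p and direction only, without the fold threshold of a call. The shares are therefore not the sensitivity of the calls, nor do they cover receptors at lower levels. Libraries of the same mouse were paired, since they came from the same animal. The correlation of their deviations from the group means was 0.0952 on average between types of 1 mouse, against -0.0471 between mice, and was 0.200, 0.263 and 0.314 between projection and inhibitory neurons of mice 1, 2 and 3. Alternatives were library-size scaling, DESeq2 1.42.0, no filter, the mouse as a block, leaving out each mouse, at least 1500 genes per nucleus, leaving out the 5% of nuclei with the most UMIs, and thinning each nucleus to 3000 UMIs. Shares were computed after thinning to 3000 UMIs, or 1500 as an alternative. Gene positions are those of the GENCODE annotation of GRCm38.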

Additional observations from a re-analysis of the deposited data

How the results depend on the processing

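Of the 17 receptors tested across types 16 differed under every scaling, tool and nucleus filter tried on the same genes, 20 with no filter on low counts, 12 with each nucleus thinned to 3000 UMIs, where several receptors had too few counts to be tested, and 15 without mouse 2. Lower calls in 1 type went from 24 to 11 when nuclei were thinned, and were 15 to 22 when each mouse was left out, with 15 without mouse 2, which holds the most nuclei. The single higher call in mitral-like types, Htr7, was absent when nuclei were thinned (0 calls, Htr7 not tested) and ranged from 0 to 1 when each mouse was left out. Calls in clusters went from 115 to 73 when thinned, and to 90 with DESeq2. Between projection and inhibitory neurons, thinning left 6 higher and 7 lower calls of 7 and 10, and nuclei without a UMI of the other class's markers gave 7 and 9. No named result changed direction. With the mouse as a replicate block, types gave 29 higher and 25 lower calls, the class comparison 7 and 10, and clusters 117. Among the results named in the text the block changed the call of 1, the F test of Htr2b across clusters (adjusted p = 0.018). Leaving out the M1 library of mouse 1, an alternative added after seeing the data, gave 29 higher and 25 lower calls. Without clusters 10 and 12, also added later, only the call of Adra2a was lost (-0.99). The share of nuclei with a UMI, averaged over mice, moved at 1500 UMIs from 19% to 9.71% for Htr2a in M2, from 13.9% to 8.92% for Htr2c in cluster 8 and from 90.0% to 80.5% for Htr1f in cluster 7. Depth limits the rare receptors, 6 of which were tested in no comparison.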

Other observations

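The number of different receptor genes seen in a nucleus also varied. With each nucleus thinned to 3000 UMIs, the mean number of receptor genes with a UMI per nucleus was 0.42 in M3, where 68 of 326 nuclei were left out as too shallow and the mice overlapped with those of M1 and M2, and 0.84 in ET1, which overlapped with ET4. It was 1.47 in the inhibitory cluster 1, 1.37 in cluster 6, 1.34 in cluster 12, 1.29 in cluster 0 and 1.27 in cluster 7, where Htr1f alone was seen in most nuclei. In the glial clusters it ran from 0.278 in the oligodendrocyte-like cluster 16 to 0.757 in the microglia-like cluster 20, where 55 of 146 nuclei were left out. The means of M1, M2, M3, T1 and ET2 lay within that range. In cluster 8, the Calb1 and Foxp2 cluster, 10 of 25 receptor genes were called higher, where 6.85% of all genes were. They were Htr2c, Htr1a, Htr1b, Htr5b, Adra1d, Adra2a, Adrb1, Drd1, Drd2 and Drd3. Of these Htr1a, Htr1b, Adra1d and Drd3 entered the fit only through clusters 15, 7, 12 and 2. Drd1, Drd2 and Drd3 were the 3 dopamine receptors tested of 5, and Drd1 and Drd3 were also called higher in clusters 2 and 5. These are descriptions with no test of their own.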
